A study of Mus musculus with 4 samples.

Results

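Receptors of the interleukin-1 (IL-1) family were examined across group 2 innate lymphoid cells (ILC2s), tissue lymphocytes that lack antigen receptors and release type 2 cytokines, and across the other immune cells sorted with them. The genes were chosen by name. They were the 5 genes *Il1rl1*, *Il18r1*, *Il18rap*, *Il1r2* and *Il1rap*. A pair of marker tables held rows for 3488 genes in all, among them 4 of the 5, and *Il1rap* had no row in either. Cells came from the liver or lung of 8-week-old wild-type BALB/c mice given PBS or recombinant IL-33 (rIL-33, 0.5 µg) intraperitoneally on each of 5 days. Each of the 4 groups of organ and treatment (PBS or rIL-33, liver or lung) had 1 library from pooled mice, profiled by droplet-based 3' single-cell RNA sequencing. The study asked how activated liver ILC2s differ from lung ILC2s, but the tables pooled the 4 libraries, so no value could be split by organ or treatment, no value had a replicate, and no test between groups was possible. The tables did not print the number of cells or the depth per cell.

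The sort kept lineage-negative cells with CD127, Thy1 and ST2 on their surface. ST2 is the protein made from *Il1rl1*, so the presence of *Il1rl1* in most sorted cells follows the choice of cells and is given as a description. In the cell type table each of 21 named types was compared with all other sorted cells, and in the ILC2 subcluster table each of 10 subclusters of ILC2s, numbered from 0, was compared with all other ILC2s. A row is called a listing: a gene that the authors kept as a marker of a cluster. For each listing the table gives how many percent of the cells had the gene, that is, a value above 0, both within the cluster and outside it. A missing listing does not show that a gene was absent from a cluster.

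Receptors of this family sit in the membrane as pairs. A ligand-binding chain takes up the cytokine and an accessory chain joins it, and their cytoplasmic Toll/IL-1 receptor domains recruit MyD88 and IRAK kinases, which activate NF-κB and MAP kinases. ST2 binds IL-33 and pairs with the accessory protein encoded by *Il1rap*, which also serves the IL-1 and IL-36 receptors. *Il18r1* encodes the IL-18-binding chain and *Il18rap* its accessory chain. *Il1r2* encodes a decoy that binds IL-1 without signalling, because it lacks the Toll/IL-1 receptor domain. In ILC2s IL-33 is a main trigger of IL-13 and IL-5, while IL-18 is best known for its action on NK cells, T cells and type 1 innate lymphoid cells.

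Of the 5 genes, 4 lie in a row on chromosome 1 of the mouse build GRCm38 (mm10), all protein-coding and on the plus strand by GENCODE M21. *Il1r2* spans chr1:40074079-40125231, *Il1rl1* chr1:40429570-40465415, *Il18r1* chr1:40465552-40500854 and *Il18rap* chr1:40515362-40551705. *Il1r1* and *Il1rl2*, which encode the signalling IL-1 receptor and the IL-36 receptor, stand between *Il1r2* and *Il1rl1*, and the 6 genes together cover 477.6 kilobases. Only 136 bases separate the end of *Il1rl1* from the start of *Il18r1*, whereas *Il18rap* begins 14.5 kilobases beyond *Il18r1*. *Il1rap* lies on another chromosome, at chr16:26581704-26730117, also on the plus strand. *Il1rl1* has annotated transcripts with different ends, among them a short soluble form known as a trap for IL-33, and the tables give a single value for the gene.

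Besides *Il1rl1*, 43 genes were listed for subclusters 0 and 3 and no other. Among them was *Gata3*, the transcription factor that the study followed in ILC2s, with small differences. It was found in 93.6% of subcluster 0 against 89.9% of all other ILC2s, and in 94.8% of subcluster 3 against 90.2%. The stretch of 250 bases before each annotated start was therefore searched, a choice made after the listings were seen, on both strands for the letters of a GATA site: AGATAA, the same with a last G (AGATAG), and both with a first T in place of A (TGATAA as well as TGATAG). RefSeq (GRCm38.p6) gave 8 start windows for the 5 genes. The window before the distal start of *Il1rl1*, chr1:40429320-40429569, lies upstream of the gene and in no exon, and it held 5 such matches. The window before the proximal start, chr1:40439379-40439628, lies inside *Il1rl1*, with 2 of its bases in an exon and the rest in introns, and it held 1 match. The window of *Il18rap*, chr1:40515112-40515361, lies upstream of its gene and also held 1. These windows are shown because they carry the matches upstream of a gene or differ between the starts of *Il1rl1*. All are plus strand, 5′ to 3′, with the GATA letters in capitals (matches on the minus strand read as their complement).
Il1rl1 distal start: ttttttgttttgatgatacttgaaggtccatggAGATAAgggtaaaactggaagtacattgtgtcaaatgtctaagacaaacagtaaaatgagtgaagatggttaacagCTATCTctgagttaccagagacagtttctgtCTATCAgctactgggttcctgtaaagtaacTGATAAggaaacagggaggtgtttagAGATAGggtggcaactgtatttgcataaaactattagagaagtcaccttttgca
Il1rl1 proximal start: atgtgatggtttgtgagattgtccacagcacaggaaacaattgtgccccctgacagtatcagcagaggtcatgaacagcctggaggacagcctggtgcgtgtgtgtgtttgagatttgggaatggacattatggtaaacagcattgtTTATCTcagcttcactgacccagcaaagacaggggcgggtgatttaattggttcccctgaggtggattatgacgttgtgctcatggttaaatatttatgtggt
Il18rap start: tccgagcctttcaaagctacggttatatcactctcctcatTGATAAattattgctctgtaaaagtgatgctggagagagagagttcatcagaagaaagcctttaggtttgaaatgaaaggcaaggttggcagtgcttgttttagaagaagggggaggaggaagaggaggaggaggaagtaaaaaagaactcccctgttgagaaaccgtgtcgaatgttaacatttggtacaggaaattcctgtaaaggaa

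In the distal *Il1rl1* window the matches began 217, 141, 110, 80 and 54 bases before the start, and in the proximal window the match began 103 bases before it. Of 32851 windows of the same length before mouse gene starts, 26.5% held at least 1 match and 0.0426% held at least 5. The window of *Il1r2* held 1 match, and the 3 windows of *Il18r1* and the window of *Il1rap* held 0. The AP-1 letters TGANTCA were found in 0 of the 8 windows, against 6.75% of all windows. The NF-κB consensus, searched on both strands as well, was likewise found in 0 of the 8 windows, against 7.25% of all windows. The ETS letters GGAAGT were found in the *Il1r2* window, the distal *Il1rl1* window, the *Il18rap* window and both windows of *Il18r1* that overlap the end of *Il1rl1*, where the windows overlap each other and share 1 match, against 19.7% of all windows. A match is a stretch of letters and was not tested for binding.

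Of the 4 receptor genes with a row, *Il1rl1* was found in the most ILC2s. It was detected in 97.0% of subcluster 3 against 87.8% of all other ILC2s, and in 96.2% of subcluster 0 against 86.6%. Both were listings, and the differences were 9.2 and 9.6 percentage points. Subclusters 0 and 3 are large, with solved sizes of 27.3% ± 0.0274 (SE of the fit) and 14.9% ± 0.0315 of the ILC2s. The size of each cluster can be solved because every cluster that lists a gene must lead to the same share of that gene over all cells, which is the average of its inside and outside shares weighted by cluster size. With these sizes, *Il1rl1* was found in 89.2% of all ILC2s.

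The 8 subclusters that did not list *Il1rl1* still had it in 83.9% of their cells on average (rounding of the deposited shares allows a shift of up to 0.123 points). Where *Il1rl1* was not listed it was therefore still found in most cells. Subcluster 1 must have had it in at least 53.5% of its cells and subcluster 2 in at least 49.1%, even if every other cell of the non-listing subclusters had it. For the smaller subclusters the tables set no lower limit. Within subcluster 0 the difference for *Il1rl1* ranked 53 of 300 listings, where the median difference was 1.35 points. Within subcluster 3 it ranked 78 of 237, where the median was 6.4 points.

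**Figure D1:**
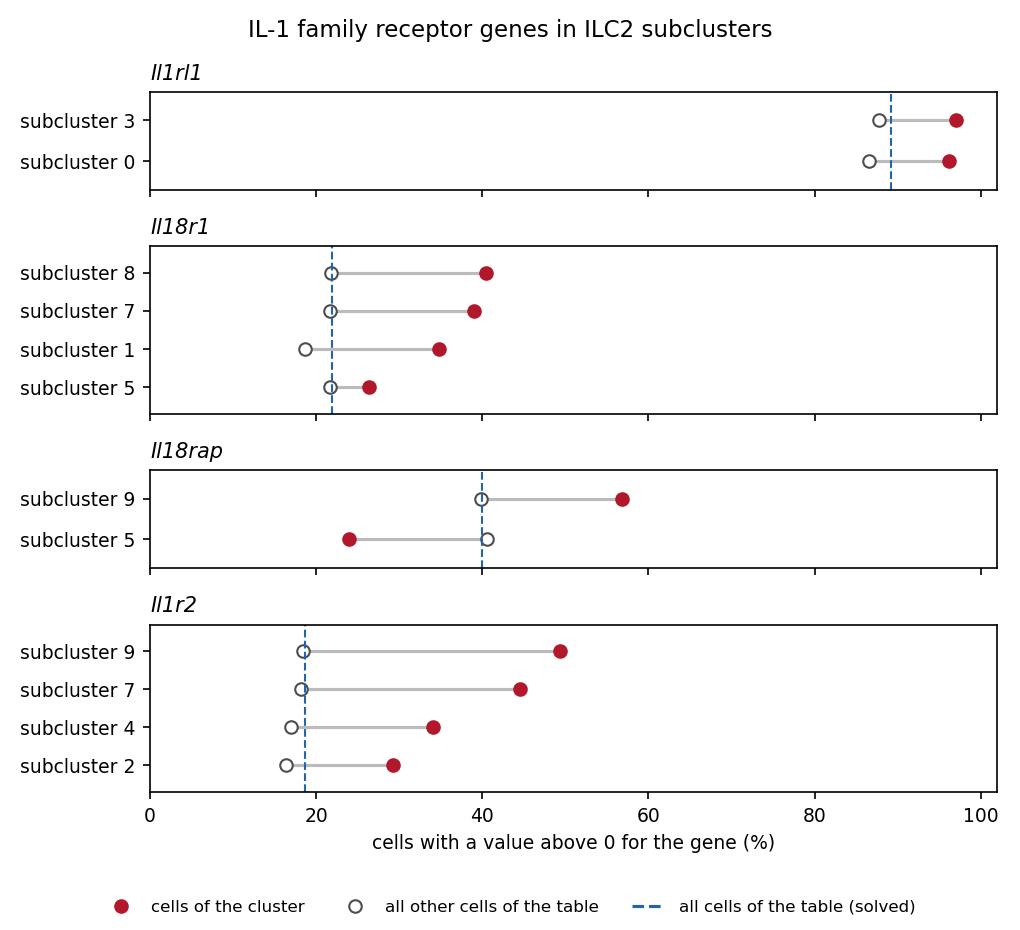
Percentage of cells with the gene, meaning a value above 0 (x axis), for each receptor gene in each ILC2 subcluster that listed it (rows). Filled points are the subcluster, open points all other ILC2s and the dashed line all ILC2s; *Il1rl1* lies between 86.6% and 97.0% throughout, whereas *Il1r2* is at 49.4% in subcluster 9 against 18.4%, and *Il18rap* in subcluster 5 lies to the left of the other cells.

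*Il18r1*, the IL-18-binding chain, was found in far fewer ILC2s than *Il1rl1*. Subcluster 8 had it in 40.4% of cells, subcluster 7 in 39.0%, subcluster 1 in 34.8% and subcluster 5 in 26.3%. In all other ILC2s they were 21.8%, 21.7%, 18.7% and 21.7% in the same order. The ratio of inside to outside was between 1.80 and 1.86 for subclusters 8, 7 and 1, and 1.21 for subcluster 5. By difference it ranked 129 of 253 listings in subcluster 8 (18.6 points, median 18.9), 219 of 270 in subcluster 7 (17.3 points, median 23.1) and 173 of 363 in subcluster 1 (16.1 points, median 15.8), so these listings were near or below the median of their subcluster. Over all ILC2s the share was 21.9%, and in the 6 subclusters without a listing it averaged 17.7%. Subcluster 1, at 20.1% ± 0.0166 of the ILC2s, held most of the cells in listing subclusters, since subclusters 7 and 8 made up 1.42% ± 0.0144 and 0.668% ± 0.0164.

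*Il18rap*, the accessory chain of the same receptor, shared only the listing of subcluster 5 with *Il18r1*. Its share in subclusters 1, 7 and 8, and that of *Il18r1* in subcluster 9, are not fixed by the tables. It was found in more ILC2s, 39.9% of all, and was listed for subclusters 5 and 9. In subcluster 9 it was found in 56.8% of cells against 39.8% of the others, a difference of 17.0 points. In subcluster 5 it was found in 23.9% against 40.6%, which is 16.7 points fewer. Of the 12 listings of these receptors in the subcluster table this was the only one with a smaller share inside, and 70.5% of all 3745 listings had a larger share inside. Most listings of subcluster 5 were of this kind, with a median difference of -21.3 points over 1000 listings. There the -16.7 points of *Il18rap* ranked 243 and the 4.6 points of *Il18r1* ranked 16.

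Subcluster 5 was the only subcluster that listed both chains of the IL-18 receptor. It also listed T cell genes: *Cd3e*, part of the T cell receptor complex, was found in 32.0% of its cells against 4.70% of other ILC2s, and *Trdc*, the constant region of the delta chain, in 25.6% against 7.0%. Of 9 alpha beta T cell markers it listed 3, of which *Cd3e* and *Cd3g* had a larger share inside (*Cd3g* 39.5% against 32.6%), whereas *Trbc1*, a constant region of the beta chain, had a smaller one, 45.0% against 81.0%. Of 5 gamma delta T cell markers it listed 2, *Cd3e* and *Trdc*. *Nkg7*, a cytotoxic granule gene, was found in 26.3% against 12.9%. The sort removed cells with CD3e or TCRb on their surface, and the study describes leaving out cells with *Cd3* before subclustering, yet the shares of *Cd3e* and *Cd3g* above are those of the cells that remained. The part of these genes in the listings of *Il18r1* and *Il18rap* was not tested. The subcluster made up 3.87% ± 0.0096 of the ILC2s.

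*Il1r2*, the decoy receptor, was found in 18.6% of all ILC2s and had the largest ratio of inside to outside among these receptor listings. Subcluster 9 had it in 49.4% of cells, subcluster 7 in 44.5%, subcluster 4 in 34.0% and subcluster 2 in 29.2%. In all other ILC2s the shares were 18.4%, 18.2%, 17.0% and 16.3% in the same order. The ratios were 2.68, 2.45, 2.0 and 1.79. By difference *Il1r2* ranked 7 of 199 listings in subcluster 9 (31.0 points, median 13.9) and 92 of 270 in subcluster 7 (26.3 points, median 23.1). It was below the median of the listings in subcluster 2, where it ranked 88 of 131 (12.9 points, median 16.1), and in subcluster 4, where it ranked 712 of 802 (17.0 points, median 34.1). Subcluster 4 also listed 4 of 5 proliferation markers. By ratio the ranks were 5, 55, 8 and 388 in the same order. In the 6 subclusters without a listing the share averaged 13.04%.

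Among ILC2s the order of the shares was *Il1rl1* at 89.2%, *Il18rap* at 39.9%, *Il18r1* at 21.9% and *Il1r2* at 18.6%. The share of cells depends on depth and transcript level, so this is an order of detection, not of molecules per cell. For every receptor gene the share in all ILC2s could be computed from each listing separately, and these values spread by no more than the range from 18.57% to 18.66% found for *Il1r2*. The plot of listing against other clusters sets these shares side by side.

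**Figure D2:**
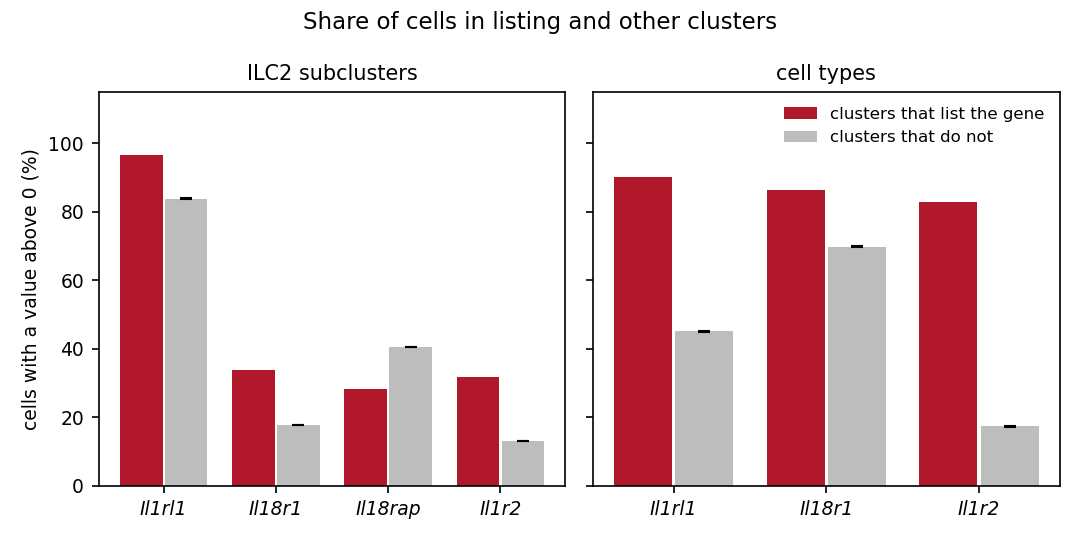
Percentage of cells with the gene (y axis) over the clusters that listed a receptor gene (dark bars) and over those that did not (light bars, with the largest shift that rounding allows), for ILC2 subclusters and for cell types. *Il1rl1* stays at 83.9% in ILC2 subclusters without a listing, and *Il18rap* is lower over its listing subclusters, at 28.4% against 40.5%, a value set by subcluster 5 (23.9%), while the much smaller subcluster 9 is higher (56.8%).

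Subcluster 0 listed 1 of the 5, as did subclusters 1, 2, 3, 4 and 8. Subclusters 5, 7 and 9 listed 2 each: *Il18r1* with *Il18rap*, *Il18r1* with *Il1r2*, and *Il18rap* with *Il1r2*. Subcluster 6 listed 0, with 7.23% of the 2629 genes in the table listed for it. As background, 11.4% of these genes were listed for subcluster 0, 13.8% for subcluster 1, 4.98% for subcluster 2, 9.01% for subcluster 3, 30.5% for subcluster 4 and 9.62% for subcluster 8. For those with 2 receptor genes it was 38.0% for subcluster 5, 10.3% for subcluster 7 and 7.57% for subcluster 9. All 4 receptor genes with a row were listed for at least 2 subclusters, against 29.2% of all genes in the table. The median difference over the 12 receptor listings was 16.55 points, beside 13.3 points over all listings.

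No subcluster listed *Il1rl1* together with *Il18r1*, *Il18rap* or *Il1r2*. Of the 438 genes listed for subcluster 0 or 3, 40.4% were likewise listed for no subcluster with one of these 3 receptor genes, and of 2425 genes listed for such a subcluster, 89.2% were listed for neither 0 nor 3. *Il13*, the cytokine the study followed, was listed for 5 subclusters, and each of these listed *Il18r1* or *Il1r2*: subclusters 1 and 8 listed *Il18r1*, subclusters 2 and 4 listed *Il1r2*, and subcluster 7 listed both. Those 5 were among 7 subclusters that listed *Il18r1* or *Il1r2*, the others being 5 and 9. As background, 76.3% of all 2629 genes had every listing within these 7, as did 1 of the 18 genes with 5 listings (5.56%), *Il13* itself. The pair of receptor genes was put together with the listings in view, so this overlap is a description. *Il1rl1* was listed for 0 of the subclusters with *Il13*. Separation from *Il13* was common in the table: of those 438 genes, 83.1% were listed for no *Il13* subcluster, and of 1431 genes listed for an *Il13* subcluster, 94.8% were listed for neither 0 nor 3. The absence of listings shared with *Il13* was therefore near the background, and neither absence is a result about these receptors.

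The pathway around the receptors was described with lists of named genes. Of 8 other receptors and soluble inhibitors of the family, 1 was listed among ILC2 subclusters: *Sigirr*, which encodes a receptor that dampens IL-1 family signalling, was found in 46.5% of subcluster 1 against 33.7% and in 53.1% of subcluster 9 against 36.2%. Of 7 ligands 0 were listed there. Of 13 genes that act just below the receptors 2 were listed. *Tab2*, an adapter of the TAK1 kinase, was listed for subclusters 1, 2, 6 and 8, at 79.4%, 79.3%, 80.2% and 84.3% of cells, each 16.9 to 20.5 points above the others. *Irak1*, a kinase recruited by MyD88, was found in 49.4% of subcluster 8 against 29.9%, and in 10.3% of subcluster 5 against 30.9%.

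Of 12 NF-κB subunits and feedback genes 6 were listed, and subclusters 1 and 3 listed 4 each. *Tnfaip3*, which encodes the inhibitor A20, was found in 93.0% of subcluster 3 against 76.7%, and in 88.8% of subcluster 1 against 76.7%. *Nfkbiz*, a nuclear co-regulator of NF-κB, was found in 80.0% of subcluster 3 against 57.5%. *Rel*, an NF-κB subunit, was found in 49.5% of subcluster 7 against 21.4%, and *Relb* in 46.9% of subcluster 9 against 29.6%. Of the 6 with a row, 4 were listed for subcluster 3 and 0 for subcluster 0. As background, of the 2629 genes with a row, 9.01% were listed for subcluster 3 and 11.4% for subcluster 0. The difference between these subclusters was not tested. All 12 listings of this list had a larger share inside, with a median of 13.2 points, close to the 13.3 points over all listings.

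Of a list of 8 ILC2 genes around the IL-33 response, which are effector genes apart from the transcription factor *Gata3*, 6 were listed. Beside *Il1rl1*, subcluster 3 listed *Gata3*, *Csf2* and *Areg*, the last a growth factor of tissue repair, and subcluster 0 listed *Gata3* alone. *Csf2*, which encodes the growth factor GM-CSF, was found in 33.4% of subcluster 3 against 17.9%. Subcluster 7, which listed *Il18r1* and *Il1r2*, listed *Areg*, *Il13*, *Il5* and *Il4*, with *Il4* in 41.5% against 22.3%. It also listed *Tcrg-C1*, a gamma chain constant region, in 42.0% against 25.8%, and *Nkg7* in 40.0% against 13%. Of 8 basophil markers it listed 1, *Il4*. Their part in the receptor listings was not tested. Subcluster 9, with *Il18rap* and *Il1r2*, listed *Il5* in 42.0% of cells against 28.3%. As background, the share of the table's genes listed was 11.4% for subcluster 0 and 9.01% for subcluster 3. It was 10.3% for subcluster 7 and 7.57% for subcluster 9.

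**Figure D3:**
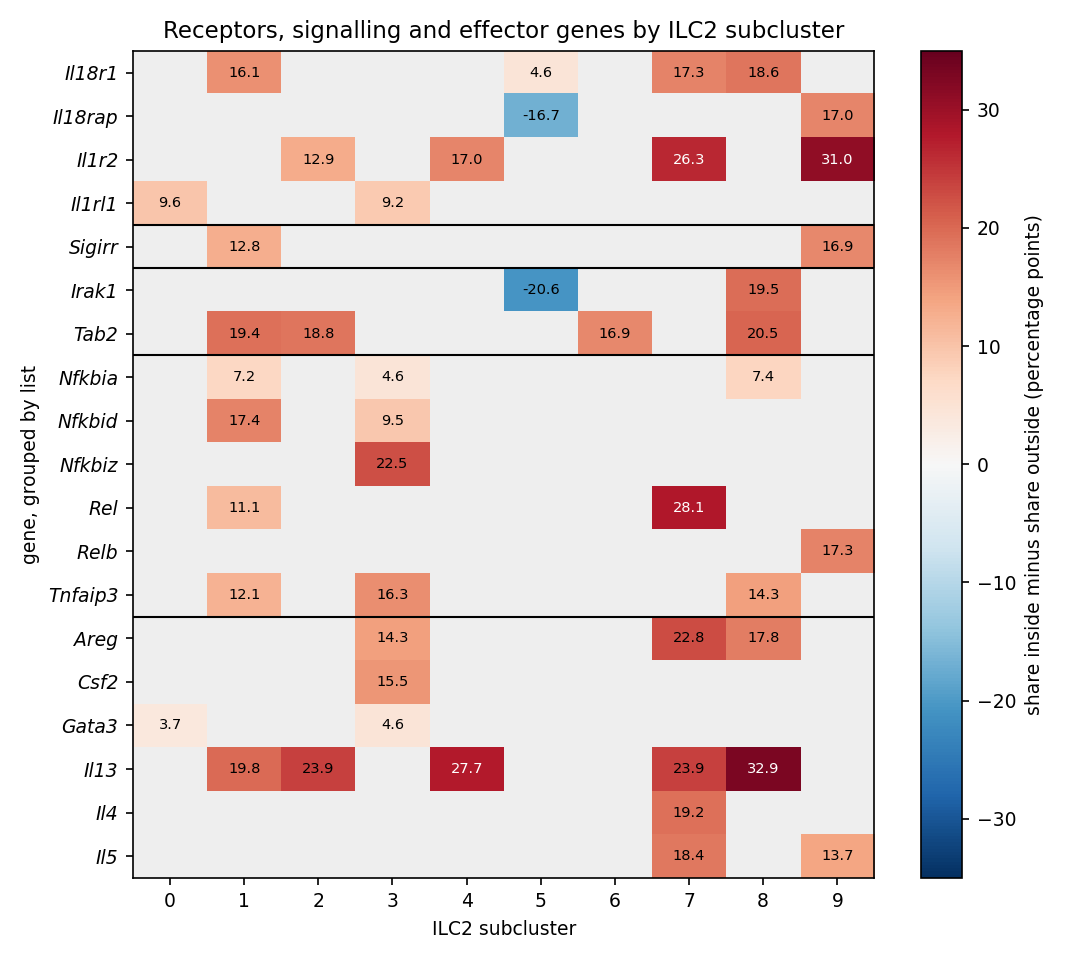
Share of cells inside minus outside (colour and number, percentage points) for each listed gene (rows, grouped by list and separated by lines) in each ILC2 subcluster (columns); grey means not listed. *Il1rl1* and *Gata3* fill the same columns, 0 and 3, and *Il13* has values of 19.8 to 32.9 points in 5 columns.

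Genes with the same listings as a receptor gene were ranked by the mean absolute distance between their differences in share and those of the receptor. For *Il1rl1* in the subcluster table, 43 genes had listings for subclusters 0 and 3 and no other. The nearest, over these 2 subclusters, were *Wls* at a distance of 1.15 points, *Il2ra* at 1.55, *Zbtb20* at 1.80, *Fhl2* at 2.20 and *Itm2c* at 2.60. *Il2ra*, which encodes a chain of the IL-2 receptor, was found in 81.9% of subcluster 0 against 74.3% and in 85.1% of subcluster 3 against 74.8%. For *Il18rap*, 14 genes had its listings, and *Snx14* at 0.90 and *Mark3* at 1.05 points were nearest. *Mark3* was found in 19.7% of subcluster 5 against 36.2% and in 50.6% of subcluster 9 against 35.5%, so it too had a smaller share in the former. For *Il18r1* and *Il1r2*, 0 genes had the same 4 listings.

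In the table of all sorted cells a value above 0 may not mean that a transcript was detected. *Cd3e* had such a value in at least 63.9% of ILC2 there, beside 5.76% of all ILC2s in the subcluster table. The study describes leaving out cells with *Cd3* and other markers of non-ILC2s before the subclusters were made. Whether this lowered the second share was not tested. The assay behind these values is not given in the sources used here, so the shares of cell types are shares of cells above 0 and not of cells shown to express a gene.

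Among all sorted cells *Il1rl1* was listed for gdT_TypeII, ILC2 and ILC2_2. It had a value above 0 in 95.3% of gdT_TypeII against 65.6% of all other cells, in 90.2% of ILC2 against 47.7%, and in 85.8% of ILC2_2 against 65.7%. The difference of 42.5 points in ILC2 ranked 6 of 136 listings there, and that of 29.7 points in gdT_TypeII was the largest of its 28. ILC2 made up 43.2% ± 0.0133 of the sorted cells, gdT_TypeII 1.58% ± 0.0400 and ILC2_2 1.78% ± 0.0145. As background, 8.10% of the 1679 genes in the table were listed for ILC2, 11.9% for ILC2_2 and 1.67% for gdT_TypeII. In the 18 other types the share with a value above 0 averaged 45.0%.

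The type names were set against fixed markers. ILC2 listed 7 of 10 ILC2 markers, among them *Gata3*, *Il5* and *Il13*. ILC2_2 listed 3 of the 10, only 1 of them with a larger share inside, together with *Igkc*, an immunoglobulin gene, and it lacked a listing of *Gata3*, so this name too is used only as a label. gdT_TypeII listed 0 of 5 gamma delta T cell markers and 2 of the ILC2 markers, *Gata3* and *Areg*, and its name is likewise only the label of the table.

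*Il18r1* had listings for 8 of the 21 types, and none of them was a type that listed *Il1rl1*. Of 288 genes listed for a type with *Il1rl1*, 43.1% were likewise listed for no type with *Il18r1*, and of 732 genes listed for a type with *Il18r1*, 77.6% were listed for none with *Il1rl1*, so listings without a shared type were common in this table. Its share was 98.9% in ILC1_ILC3, 97.4% in gdT_TypeIII_ITGAE, 97.1% in ILC3 and 95.8% in gdT_TypeIII_CD163l1. Basophil followed at 92.8%, NK at 89.5%, ILC1 at 88.8% and gdT_TypeI at 79.1%. In all other cells the share was 73.4% to 74.0% in each of these comparisons. The difference ran from 24.9 points in ILC1_ILC3 to 5.6 points in gdT_TypeI, and was close to the median difference of its type in gdT_TypeI (5.5 points) and below it in Basophil (18.9 against 33.3 points). The 13 types without a listing averaged 69.8%.

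As background for *Il18r1*, the share of the table's genes that were listed was 13.4% for ILC1_ILC3, 11.7% for gdT_TypeIII_ITGAE, 9.11% for ILC3 and 11.4% for gdT_TypeIII_CD163l1. It was 16.4% for Basophil, 11.7% for NK, 8.64% for ILC1 and 8.64% for gdT_TypeI. The NK label listed 7 of 7 NK and ILC1 markers, 6 of them with a larger share inside, ILC1 listed 5 of them, and Basophil listed 8 of 8 basophil markers. ILC3 listed 5 of 9 alpha beta T cell markers, 4 of them with a larger share inside, *Cd3e* among these.

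*Il1r2* was listed for a single type, MMP_LMPP, labelled as multipotent and lymphoid-primed progenitors. Of these cells 82.9% had a value above 0 for it, against 17.3% of all others. The difference of 65.6 points ranked 9 of 403 listings, and the ratio of 4.79 ranked 3. The type made up 0.387% ± 0.0063 of the sorted cells, and 24.0% of the table's genes were listed for it. It also listed 3 of 6 B and plasma cell markers, *Mzb1*, *Cd79a* and *Cd79b*. The nearest of the 43 genes listed for this type alone was *Cc2d2a*, at 83.7% against 17.6%, and *Vpreb1*, a part of the pre-B cell receptor, followed at 89.4% against 27.2%.

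**Figure D4:**
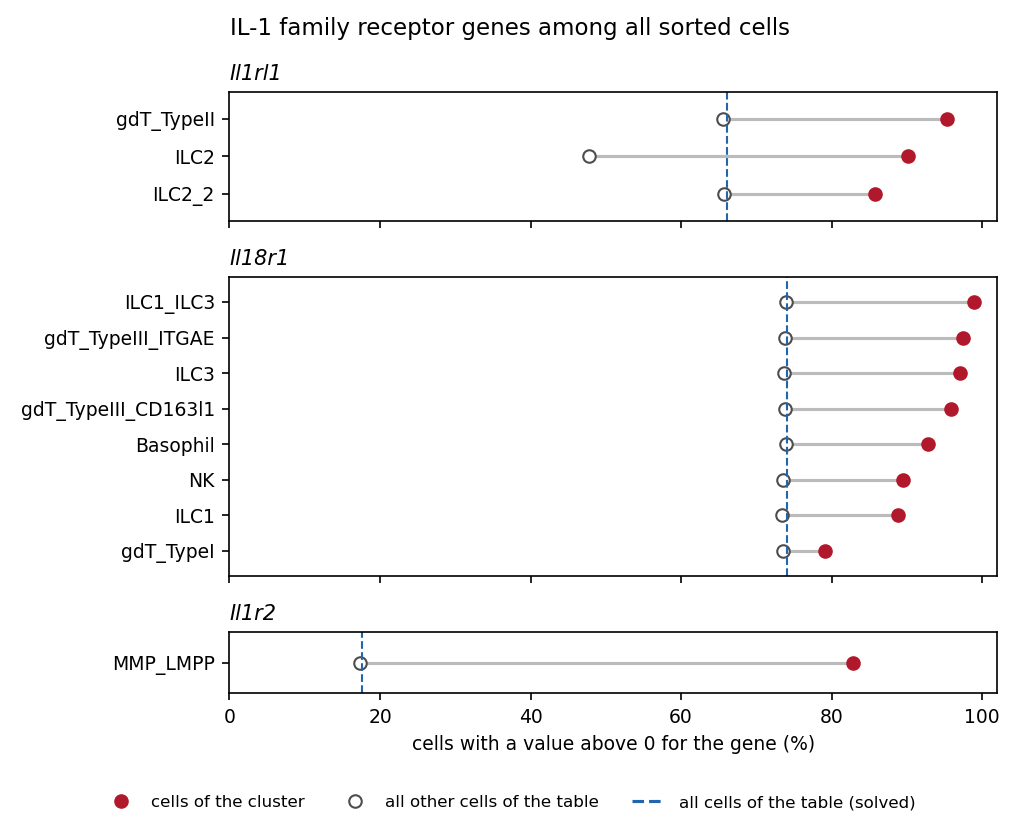
Percentage of cells with the gene, meaning a value above 0 (x axis), for each receptor gene in each cell type that listed it (rows), with all other sorted cells as open points and all sorted cells as a dashed line. *Il1rl1* reaches 95.3% in gdT_TypeII and *Il18r1* 98.9% in ILC1_ILC3, and *Il1r2* stands at 82.9% in MMP_LMPP against 17.3%.

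Of the 21 types 12 listed 1 of the receptor genes and 9 listed 0, the latter holding 26.8% of the cells. As background, the share of the table's genes listed was 5.60% for CD8_Effector, 7.80% for CD4, 8.87% for gdT_Naive, 8.93% for Treg and 11.8% for CD8_Naive. It was 12.2% for Plasma cell, 17.3% for Macrophage, 23.6% for Endothelium cell and 30.6% for the proliferating cells. At least 2 listings were found for 2 of the 3 receptor genes with a row, against 62.2% of all genes in the table. *Il18rap* had no row here, and *Il1rap* had none in either table. Of the other receptors and inhibitors *Il1r1* alone was listed. This signalling receptor was above 0 in 73.8% of ILC1_ILC3 against 42.4% and in 63.2% of gdT_TypeIII_CD163l1 against 42.3%. Both types also listed *Il18r1*. Its other listings were smaller differences, at 48.4% of ILC3 against 42.5%, 44.7% of MMP_LMPP against 42.6% and, lower inside, 35.9% of Endothelium cell against 42.7%. Of the 7 ligands 2 were listed. *Il18* was above 0 in 89.9% of Macrophage against 15.7% and in 25.2% of MMP_LMPP, the type with *Il1r2*, against 19.1%. *Il1b* was above 0 in 96.5% of Macrophage against 25.9% and in 86.6% of Basophil against 28.6%. Of the 13 genes just below the receptors 0 were listed. Of the 12 NF-κB genes 5 were listed. Among them *Nfkbiz* was above 0 in 88.8% of ILC2 against 72.8%, in 99.7% of Basophil against 79.5% and in 94.5% of ILC1_ILC3 against 79.6%. Its share was smaller in ILC2_2 (68.0% against 79.9%), which also listed *Il1rl1*, and in Treg (70.5% against 79.9%). Of the 25 listings of this list 18 had a larger share inside. Of the 8 genes of the effector list, *Gata3* included, 7 were listed. *Csf2* was above 0 in 65.5% of ILC2 against 37.4% and in 59.8% of gdT_TypeII against 49.4%. It was also above 0 in 69.9% of ILC1_ILC3, a type with *Il18r1* and not *Il1rl1*, against 49.4%. *Il13* was above 0 in 32.4% of ILC2 against 16.6%, and in 84.8% of Basophil, which also listed *Il18r1*, against 22.7%.

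Shares of the cell type table were not on the scale of the subcluster table. ILC2 and ILC2_2 together made up 45.0% of the sorted cells. For 116 genes listed for ILC2 that also had a row in the subcluster table, the share in ILC2 was above that in all ILC2s of the other table for 112, by a median of 16.8 points. *Il1rl1* was among the closest, with 90.2% of ILC2 beside 89.2%, a difference of 1.0 point that 5 of the 116 genes, itself included, did not exceed. *Il18r1* differed widely: ILC2 must have had it in at least 48.4% of cells for the 69.8% above to hold, beside 21.9% of ILC2s in the subcluster table. Values of *Il18r1* in one table were therefore not set against those in the other.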

How the data were processed

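Sorted liver and lung ILC2s of 4 groups, 1 library each, were sequenced with a droplet-based 3' kit. Per the study's methods and the labels, the authors aligned reads to mm10 with Cell Ranger, excluded cells with few genes, scaled counts per cell to a common total with a log transformation, and clustered cells and searched markers in Seurat over the merged libraries. Each deposited row holds a fraction of cells in which the gene exceeded 0, for the cluster and for the remaining cells, rounded by the authors to 3 decimals. Which Seurat assay was used is not given in the sources used here. The tables also hold the authors' own fold changes and p-values, which were not used, so a listing is known only as the authors' selection. Doublets were removed by flow cytometry per the methods, and a doublet caller cannot be run on marker tables.

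With Python 3.11.15, numpy 2.4.6 and pandas 2.3.3, shares were compared by difference and ratio. Cluster sizes were solved by least squares within genes listed for at least 2 clusters (1045 genes and 3788 listings of the cell type table, 768 genes and 1884 listings of the subcluster table), with the standard error of the fit. They summed to 100.1% and 100.2%. The calculation was tested on simulated data. The standard errors of the fit cover rounding and misfit, not animals or the number of cells counted. Motifs were searched in RefSeq windows. The receptor genes and lists were chosen with earlier results of these data known. Genes were named where they are receptors, belong to a list, or rank among the 5 nearest with the same listings.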

Additional observations from a re-analysis of the deposited data

How the results depend on the processing

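Stricter listings changed the number of clusters for some receptor genes in the subcluster table, by construction of the thresholds. With a share inside at least 10 points above the others, the subclusters of *Il1rl1* fell from 2 to 0 (the differences were 9.2 and 9.6 points), and those of *Il18rap* to 1. With only listings of a larger share inside, *Il18rap* kept 1, that of subcluster 9. With at least 50% of cells inside, *Il18r1* and *Il1r2* had 0 and *Il18rap* had 1. Of 30 such counts 9 were 0 as deposited and could not move, and 15 of the other 21 stayed within 1.5 times. Other fits gave 93 sizes, of which 92 kept to the 95% interval of the fit, and subcluster 1 moved to 20.02% when sizes were rescaled to sum to 100%. The 21 shares in all cells and the 21 in non-listing clusters under other fits all moved by less than rounding allows. No paired analysis was possible because the tables pool all libraries. The tables print neither depth nor cell numbers, and no counting error was computed for any share. The standard errors of the fit do not include counting error. Subclusters 7, 8 and 9 held the fewest ILC2s, at 1.42%, 0.668% and 0.611%, so their shares rest on the fewest cells.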
